A study of Mus musculus with 39 samples.

Results

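Intestinal tissue labelled as tumour was compared with the non-tumour tissue around it in mice that carry the Apc Min mutation and are homozygous for the ex allele of Adam17, the genotype written Apc Min/+ ::ADAM17 ex/ex. These ex/ex libraries were chosen by their genotype label and number 23 of the 39 in the series, 17 from tumours and 6 from surrounding tissue. The other 16 libraries came from Apc Min/+ mice with wild-type Adam17, 12 from tumours and 4 from surrounding tissue, and serve mainly to set the tumour effects of the 2 genotypes against each other. They also enter the fit behind every call. Their levels of Notum, Wif1, Adam17 and the B cell and Wnt feedback lists are given for reference. All 4 groups share the Apc Min/+ mutation and the C57BL/6 strain, and none is described as treated. The labels give no age, sex, animal or position along the intestine, so several pieces may come from 1 animal, and each p-value measures the spread between these libraries. Apc Min is a germline nonsense mutation carried by every cell, and the ex allele lowers ADAM17 in the whole animal, so no promoter or Cre limits either to the epithelium. "Tumour" below is the name on the label.

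ADAM17 is a membrane protease that cuts cell-surface proteins loose, among them ligands of the EGF receptor and the IL-6 receptor, whose soluble form carries IL-6 to cells that lack the receptor. Adenomas of Apc Min mice arise from epithelial cells that have lost the second copy of Apc, and such cells run the Wnt pathway without a brake, which shows in raised negative-feedback genes such as Notum, Wif1, Nkd1 and Axin2. Intestinal mucosa also holds lymphoid follicles, in Peyer's patches and as isolated follicles, where B cells gather around follicular dendritic cells and divide in germinal centres. The epithelium over a follicle contains M cells, which carry particles from the lumen to the lymphocytes. In a bulk library a change in the number of cells of a type and a change in the RNA each of them makes cannot be told apart.

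Signals through the EGF receptor and through soluble IL-6 receptor are named in the title of the series. The comparison of tumour with surrounding tissue gives what distinguished the pieces labelled tumour when Adam17 was reduced, and the difference of the tumour effects between genotypes sets that against the same comparison with wild-type Adam17.

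Read counts per gene from poly(A) RNA were available for every library. The 17 tumours held 7816667 to 10612100 counts on genes and 21187 to 24702 genes with a count, and the 6 non-tumour libraries held 6619912 to 11112321 counts and 21579 to 22273 genes. Mitochondrial genes took 1.87% to 4.95% of the counts of tumours and 2.60% to 3.49% of those of non-tumour libraries. Values below are CPM, each count relative to the size of its library, scaled by trimmed mean of M values, and replicate numbers only name libraries.

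Several libraries stood apart from the rest of their group before any test. Tumours 1 to 3 and non-tumour libraries 1 and 2 held Y-linked transcripts (Ddx3y above 5 CPM), and the others did not. Tumour 2 had the B cell level of non-tumour tissue, and tumour 1 lay between it and the rest. Non-tumour libraries 3 and 4 held transcripts of the duodenum, and library 4 also those of the stomach. Non-tumour libraries 1 and 2 were far closer to each other (chi-square per degree of freedom 2.12) than non-tumour pairs usually were (median 76.1), as were tumours 4 and 5 (5.51, against a median of 71.7 among tumour pairs). Further fits left out tumours 1 and 2, non-tumour libraries 3 and 4, or the libraries with Y-linked transcripts. In another, non-tumour libraries 1 and 2 were summed. Tumours 4 and 5 were left out singly but never together, and the main fit counts every library as separate.

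The label was checked against its markers. Notum, a secreted Wnt inhibitor and a marker of Apc-mutant cells (11:120653788-120661175, GRCm38), was at 0, 0.0964 and 7.17 CPM in tumours (lowest, median, highest), against 0.215, 1.06 and 4.83 CPM in ex/ex non-tumour tissue. No Notum read was present in 6 of the 17 tumours, and only tumour 1 lay above every non-tumour library. Wif1, another secreted Wnt inhibitor, was at 0.289, 0.784 and 2.31 CPM in tumours, against 0.293, 0.704 and 1.005 CPM in non-tumour tissue. In tumours of mice with wild-type Adam17 the medians were 52 CPM for Notum and 15.9 CPM for Wif1. Some wild-type tumours also held high B cell transcripts: the mean log2 CPM of the B cell list was 7.78, 8.01 and 7.19 in wild-type tumours 1, 4 and 7. In the other wild-type tumours it was 0.24 to 3.58. The mean log2(CPM + 1) of the Wnt feedback and adenoma list was 3.533 to 6.116 in wild-type tumours and 3.321 to 3.782 in ex/ex tumours. Neither Notum nor Wif1 passed the test between ex/ex tumours and ex/ex non-tumour tissue (log2 fold changes −1.54 ± 1.08 and 0.48 ± 0.81), and their levels overlapped. The highest Notum of non-tumour tissue was that of library 4, and the others held 0.215 to 1.56 CPM. As a group, the ex/ex pieces labelled tumour were therefore not set apart from non-tumour tissue by Notum or Wif1. A missed test does not show what the pieces are. By B cell transcripts 16 of the 17 were set apart.

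Across all genes, 7685 of 16327 (47.1%) differed between ex/ex tumours and ex/ex non-tumour tissue at an adjusted p under 0.05 by the quasi-likelihood F test of edgeR, adjusted after Benjamini and Hochberg. Of these, 3885 (23.8% of the genes tested) rose and 3800 (23.3%) fell, and the median log2 fold change over all genes was −0.03. Every tumour lay above every non-tumour library for 1.49% of the genes tested and below for 3.03%. These shares are the background against which the counts for gene groups below are read.

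The background itself depended on the covariate and the libraries of the fit. With the mean level of the B cell list as a covariate, among the ex/ex libraries alone, 820 of the 7685 genes kept their call and 3777 had the opposite sign. That covariate (mean log2 CPM) was 0.44 in tumour 2, 4.79 in tumour 1 and 6.75 to 8.24 in the other tumours. In non-tumour tissue it was 0.90 to 2.21. It thus nearly follows the groups, and fits with it lean on tumours 1 and 2 and cannot show a cause. Among the named genes with a call, 33 kept it with the covariate, 45 kept their direction but missed the threshold, and 25 had the opposite sign. Within the 5 libraries that held Y-linked transcripts (3 tumours, 1 of them without a lymphoid rise, and 2 non-tumour libraries) 14 genes rose and 10 fell. Without those 5 libraries 7136 of the 7685 genes kept their call, and without non-tumour libraries 3 and 4 together 5722 did. The 5 include tumours 1 and 2, the lowest tumours in the covariate. Leaving them out favours calls that follow the B cell level and is no support for those calls.

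**Figure D1:**
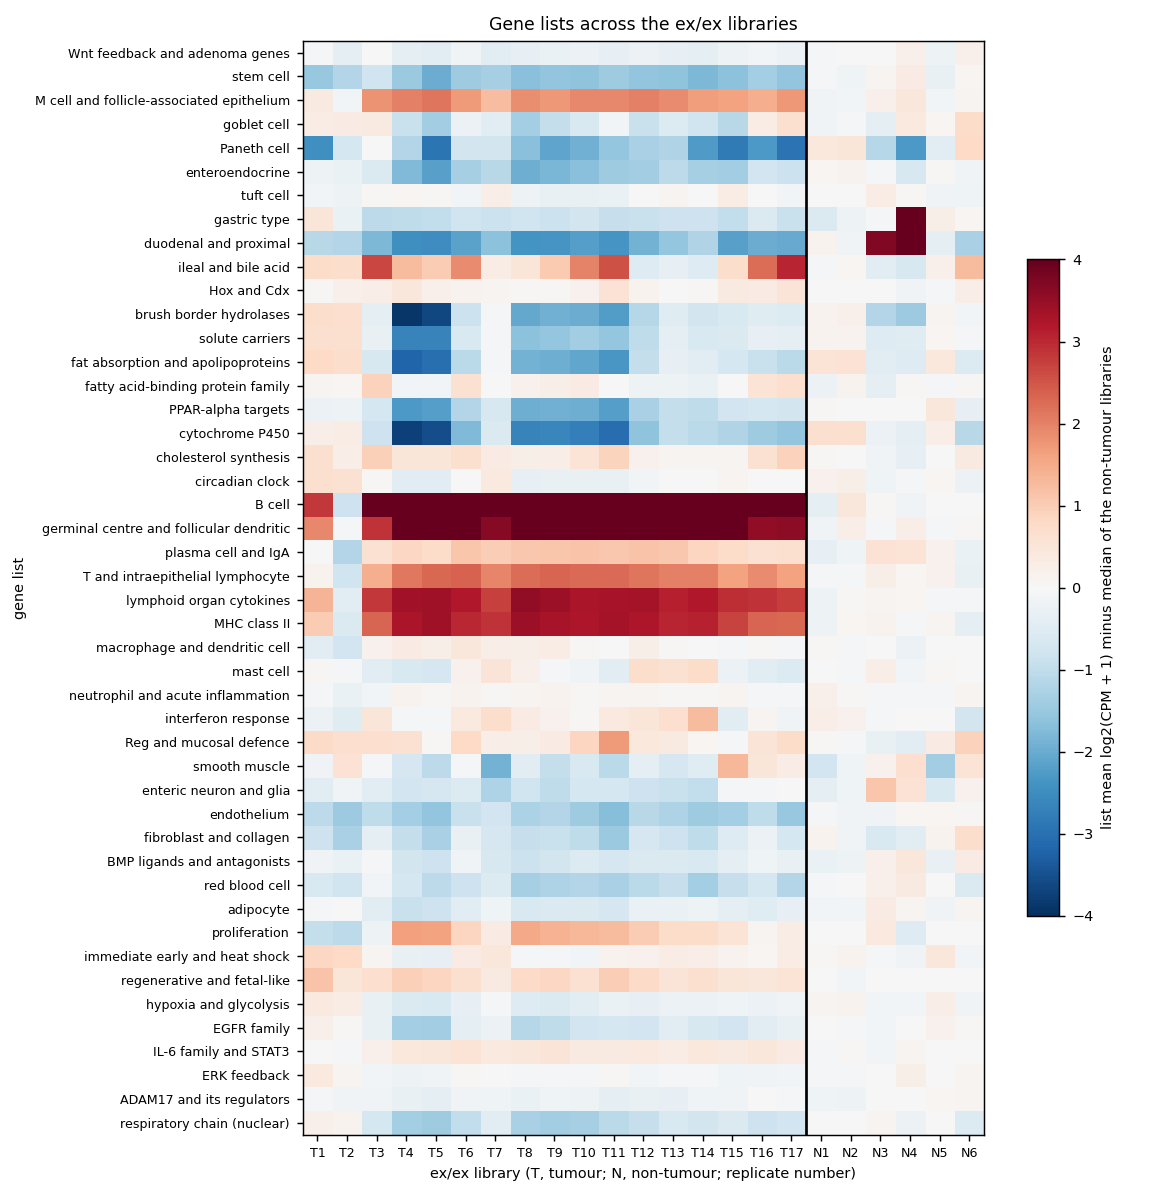
Mean log2(CPM + 1) of each gene list (rows) in each ex/ex library (columns, tumours T1 to T17 left of non-tumour N1 to N6), shown as the difference from the median of the 6 non-tumour libraries. The B cell, germinal centre, lymphoid organ cytokine and MHC class II lists are high in every tumour but T2 and weaker in T1, the T and intraepithelial lymphocyte list is high in T3 to T17, and the stem cell and endothelium lists are low in all 17 tumours.

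Genes of B cells and germinal centres had the largest median rises among the lists. All 14 genes of the B cell list and all 14 tested genes of the germinal centre and follicular dendritic list rose, with median log2 fold changes of 5.66 and 5.64. The same 14 and 14 rose without non-tumour libraries 3 and 4, and without tumours 1 and 2. Tumours 1 and 2 were the lowest of the tumours in both lists, so leaving them out favours a rise and is no support for it. Cd79a, a signalling chain of the B cell receptor (7:24897381-24902197), was at 4.41, 462 and 739 CPM in tumours, against 9.93, 18.4 and 25.8 CPM in non-tumour tissue. In 16 of 17 tumours Cd79a was above every non-tumour library, and tumour 2 was below them. The log2 fold change was 4.66 ± 1.10 (SE), adjusted p = 0.00102 by edgeR.

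Germinal-centre genes separated the tumours further. S1pr2, the receptor that holds B cells in the germinal centre, was at 1.56, 66.5 and 154 CPM in tumours and 2.76, 3.50 and 4.13 CPM in non-tumour tissue (log2 fold change 4.34 ± 0.81). Gcsam, a signalling adaptor of germinal-centre B cells, was at 0.427, 62.5 and 147 CPM in tumours, against 0.394, 0.780 and 1.08 CPM in non-tumour tissue. Tumour 3 had 334 CPM of Cd79a but only 6.24 CPM of Gcsam and 8.66 CPM of S1pr2. Tumour 3 therefore carried B cell transcripts with little of Gcsam and S1pr2. Its mean over the whole germinal centre and follicular dendritic list was 4.803 (log2(CPM + 1)). The tumour median was 6.008, and non-tumour tissue had 1.767 to 2.166. Il21, a cytokine of follicular helper T cells, had reads in 16 of 17 tumours, up to 10.4 CPM, and in none of the 6 non-tumour libraries.

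Genes that build and supply lymphoid tissue rose with them. In the list of lymphoid organ cytokines 12 of 14 genes rose, 1 fell and the median was 4.91. Cxcl13, the chemokine that draws B cells into follicles, was at 1.28 to 411 CPM in tumours, against 2.20, 3.63 and 3.91 CPM in non-tumour tissue. Lta and Ltb, which encode lymphotoxin, rose by log2 6.75 ± 1.40 and 4.92 ± 1.11, and Ccr7, the receptor that guides T cells and dendritic cells to lymphoid tissue, by 5.17 ± 1.19. Ltbr, the lymphotoxin receptor of stromal and epithelial cells, was the member that fell (−0.91 ± 0.29), with 28.2, 75.8 and 158 CPM in tumours and 108, 152 and 155 CPM in non-tumour tissue. Among T and intraepithelial lymphocyte genes 15 of 20 rose and none fell (median 2.34), and Cd3e, a chain of the T cell receptor complex, was at 4.98, 31.4 and 40.8 CPM in tumours and 4.14, 7.87 and 11.7 CPM in non-tumour tissue.

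**Figure D2:**
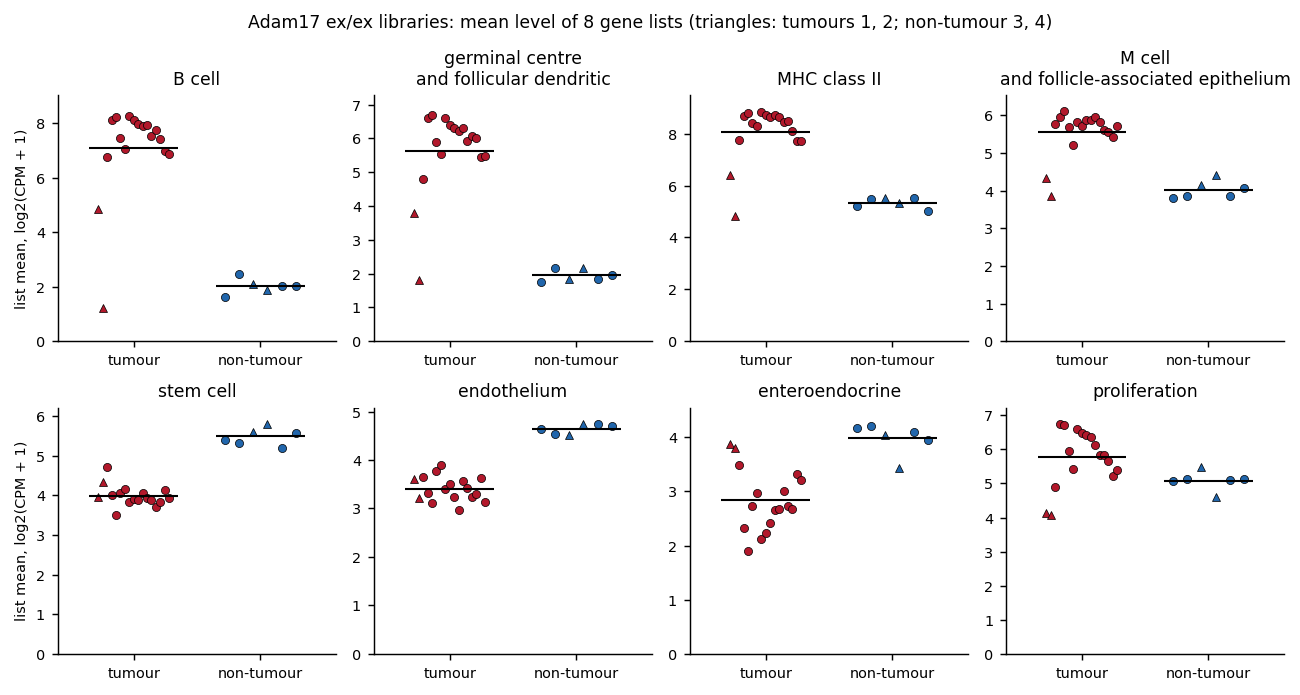
Mean log2(CPM + 1) of 8 gene lists in each ex/ex library, tumours left of non-tumour tissue, with bars at the group means. Triangles mark tumours 1 and 2 and non-tumour libraries 3 and 4. Tumours range from 1.21 to 8.24 for the B cell list, against 1.63 to 2.48 in non-tumour tissue, while for stem cell and endothelium lists the groups do not overlap.

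Genes of antibody-secreting cells did not follow those of B cells. In the list of plasma cell and IgA genes 4 of 12 rose and 5 fell, the median being −0.18. Ighm and Ighd, the heavy chains of naive B cells, rose by log2 4.10 ± 1.18 and 7.41 ± 1.64. Jchain, which links IgA into dimers, was at 402, 950 and 1402 CPM in tumours, against 1446, 2236 and 3284 CPM in non-tumour tissue, with no overlap (−1.23 ± 0.30, adjusted p = 0.00122 by edgeR). Igha, the IgA heavy chain, fell by log2 1.45 ± 0.34, and Pigr, the epithelial receptor that carries IgA into the lumen, by 1.63 ± 0.36. Immunoglobulin constant genes resemble one another, and reads shared between them would be set aside as not unique. Xbp1, a regulator of secretory cells that plasma, goblet and Paneth cells all use, also fell in every tumour, to 162, 206 and 268 CPM, against 290, 297 and 518 CPM in non-tumour tissue.

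Most genes listed for M cells and the epithelium over follicles rose as well, though not all are particular to that epithelium. In the list of M cell and follicle-associated epithelium 11 of 15 genes rose, none fell and 4 did not pass the test (median 1.80). Spib, a transcription factor of M cells and of B cells, was at 14.2, 298 and 494 CPM in tumours, against 11.3, 12.2 and 16.2 CPM in non-tumour tissue (log2 fold change 4.43 ± 0.90). Sox8, a factor that M cells need to mature, rose by 4.36 ± 0.81, and Tnfsf11, which encodes RANKL, the signal that induces M cells, by 5.50 ± 1.27. The M cell receptor Gp2 was at 45.0 CPM at the median in tumours and 3.74 CPM in non-tumour tissue, where library 4 reached 41.0 CPM. Its call (adjusted p = 0.0477 by edgeR) was lost without any of non-tumour libraries 1, 2, 3, 5 or 6 (adjusted p from 0.0821 to 0.101) and without any of tumours 3 to 6, 8, 12, 13 and 15 to 17 (0.0503 to 0.0573). Both Marcksl1 and Relb were higher in all 17 tumours, tumour 2 included. Marcksl1, an actin-binding protein, was at 25.5, 79.8 and 155 CPM in tumours, against 8.54, 10.1 and 14.5 CPM in non-tumour tissue (3.08 ± 0.35). Relb, a subunit of non-canonical NF-kappaB, was at 72.5, 81.5 and 132 CPM in tumours and 44.9, 56.4 and 70.0 CPM in non-tumour tissue. Spib is also read in B cells, and the part of those cells in the list was not tested beyond the covariate: with the B cell list as a covariate 3 of the 15 rose and 2 fell, the median being 0.14.

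MHC class II genes present antigen to CD4 T cells and are transcribed by B cells, dendritic cells and villus epithelium from promoters that share short elements. The upstream sequences of 3 class II genes are shown because every class II gene tested rose: they run from 250 bases before to 50 after the annotated start (RefSeq, GRCm38.p6), 5′ to 3′ in the direction of the gene. Capitals mark GATTGG or its complement CCAATC, the core of the Y element.
H2-Aa: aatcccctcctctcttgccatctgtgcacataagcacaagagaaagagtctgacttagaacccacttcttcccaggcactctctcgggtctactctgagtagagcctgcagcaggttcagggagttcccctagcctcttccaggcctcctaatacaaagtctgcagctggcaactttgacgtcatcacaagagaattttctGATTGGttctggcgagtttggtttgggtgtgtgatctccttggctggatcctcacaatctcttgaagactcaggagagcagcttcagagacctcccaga
H2-Eb1: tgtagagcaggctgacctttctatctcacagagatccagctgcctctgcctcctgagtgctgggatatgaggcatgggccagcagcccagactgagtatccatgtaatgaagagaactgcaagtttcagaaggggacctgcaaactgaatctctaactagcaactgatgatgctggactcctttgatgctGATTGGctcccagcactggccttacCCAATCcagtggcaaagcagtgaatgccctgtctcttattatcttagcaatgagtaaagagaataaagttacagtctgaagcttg
H2-Ob: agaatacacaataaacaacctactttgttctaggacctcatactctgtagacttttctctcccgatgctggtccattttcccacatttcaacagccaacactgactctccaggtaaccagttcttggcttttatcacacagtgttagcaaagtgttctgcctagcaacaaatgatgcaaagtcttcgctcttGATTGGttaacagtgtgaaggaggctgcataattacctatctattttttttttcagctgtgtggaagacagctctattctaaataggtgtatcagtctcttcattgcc
These windows lie at chr17:34287774-34288073 (minus strand) for H2-Aa, chr17:34305617-34305916 (plus) for H2-Eb1 and chr17:34238655-34238954 (plus) for H2-Ob. Searched on both strands, GATTGG was found in the windows of all 7 class II genes that had one, and in 16.1% of the 32851 promoter windows of that length. It lay 49 bases before the start in H2-Aa, 60 and 35 in H2-Eb1 and 58 in H2-Ob. A match describes the letters and no binding was measured here.

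All 10 class II genes rose, with a median log2 fold change of 2.23. H2-Aa, an alpha chain that presents peptide, was at 215, 1595 and 2109 CPM in tumours, against 259.4, 305 and 413 CPM in non-tumour tissue (2.16 ± 0.49). H2-Eb1, a beta chain, was at 154, 1035 and 1288 CPM in tumours and 201, 240 and 302 CPM in non-tumour tissue (1.90 ± 0.47). H2-Ob, a subunit of the B cell protein that restrains peptide loading, was at 2.28, 232.7 and 391 CPM in tumours, against 2.73, 4.52 and 6.15 CPM in non-tumour tissue (5.72 ± 1.33). H2-DMb2, a subunit of the peptide loader, rose by 5.14 ± 1.22. For H2-Aa and H2-Ob 16 tumours were above every non-tumour library, and tumour 2 was below them. The classical chains were abundant in both tissues, and H2-Ob and H2-DMb2 were at no more than 6.22 CPM in non-tumour tissue. With the B cell list as a covariate none of the 10 rose and 1 fell, the median being −0.17. Reads that class II genes share through their similarity may be uncounted.

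**Figure D3:**
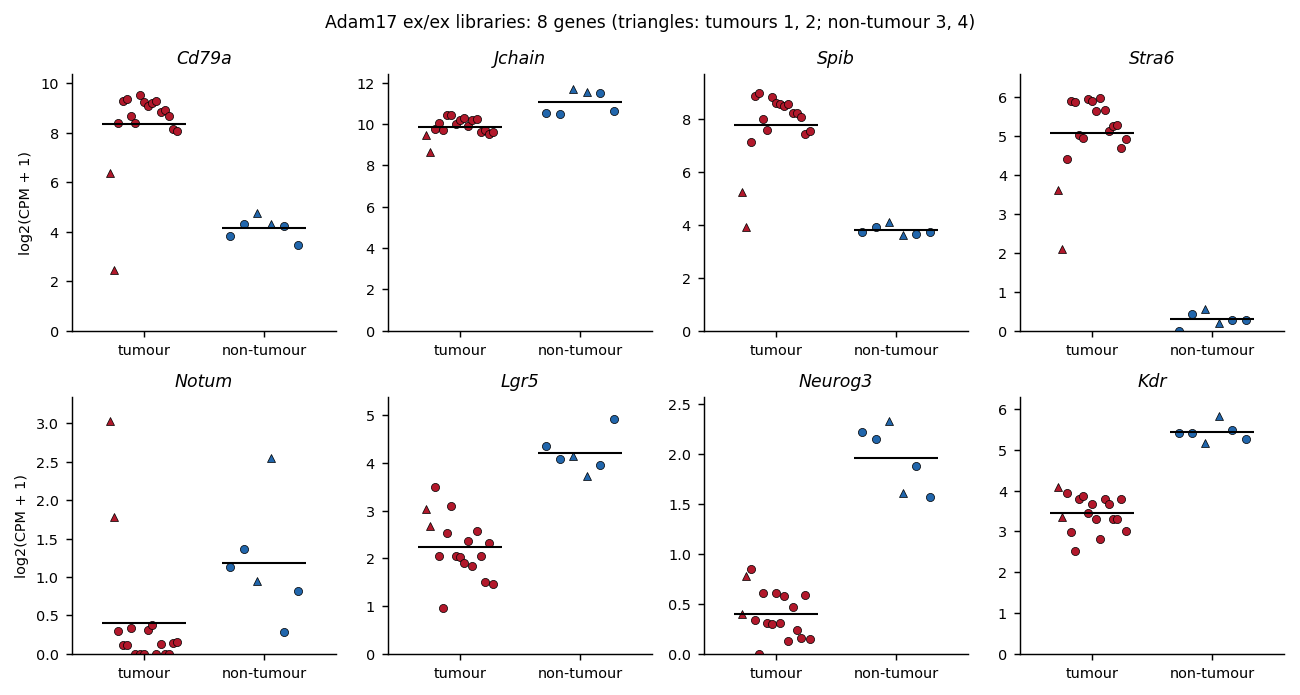
Log2(CPM + 1) of 8 genes in each ex/ex library, tumours left of non-tumour tissue, with bars at the group means and triangles for tumours 1 and 2 and non-tumour libraries 3 and 4. Cd79a and Spib are high in all tumours but tumour 2, Jchain, Lgr5, Neurog3 and Kdr are lower in all 17, Stra6 is higher in all 17, and Notum overlaps between the groups.

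Wnt feedback genes did not rise as a group. Of the 20 in the list of Wnt feedback and adenoma genes 3 rose and 7 fell, with a median log2 fold change of −0.71. Over all genes tested 23.8% rose and 23.3% fell. Every member with a call that is described below fell, and the 3 that rose are not described. Axin2, which rebuilds the complex that degrades beta-catenin, was at 16.6, 31.8 and 62.3 CPM in tumours, against 43.9, 53.1 and 66.1 CPM in non-tumour tissue. It fell by log2 0.74 ± 0.28 (adjusted p = 0.0258 by edgeR), a call lost without non-tumour library 3 (0.0556) or 6 (0.0585) and with the B cell covariate (−0.16, adjusted p = 0.787). Nkd1 was at 2.84, 6.05 and 15.2 CPM in tumours and 5.91, 11.2 and 16.8 CPM in non-tumour tissue and did not pass the test (−0.85 ± 0.53). Rnf43 and Znrf3, ligases that remove Wnt receptors from the surface, fell by log2 1.27 ± 0.30 and 1.08 ± 0.23, and Znrf3 was lower in every tumour (3.50, 5.60 and 7.28 CPM, against 9.997, 11.1 and 13.8 CPM in non-tumour tissue). Sox4 was lower in every tumour too, at 6.26, 8.72 and 13.6 CPM, against 17.4, 21.8 and 28.6 CPM in non-tumour tissue. Mmp7, a protease of Paneth cells and adenomas, fell by log2 2.27 ± 0.49. Sp5, a direct Wnt target, was at 16.2 CPM in tumour 1, 9.96 CPM in tumour 2 and a median of 1.999 CPM over tumours, against 3.60 to 18.5 CPM in non-tumour tissue. In the fit with the B cell covariate none of the Wnt feedback and adenoma genes rose and 6 of 18 fell (median −0.22), and Rnf43 missed the threshold (−0.24, adjusted p = 0.569).

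Genes of intestinal stem cells were low in the pieces. In the stem cell list 10 of 12 fell, none rose, the median was −1.55, and 6 were lower in every tumour than in any non-tumour library. Lgr5, the receptor that marks crypt base stem cells (10:115450311-115587780), was at 0.954, 3.16 and 10.3 CPM in tumours, against 12.2, 16.3 and 29.4 CPM in non-tumour tissue, which is a log2 fold change of −2.12 ± 0.46 (adjusted p = 4.77e-04 by edgeR). Olfm4, a secreted protein of the same cells, was at 11.8, 40.5 and 223 CPM in tumours and 393, 636 and 818 CPM in non-tumour tissue (−3.49 ± 0.41). Tumours 1 and 2, without the high B cell level of the others, had 7.17 and 5.41 CPM of Lgr5, also below all non-tumour libraries. With the B cell list as a covariate 7 of the 12 still fell, Olfm4 among them, while Lgr5 (−1.21, adjusted p = 0.171) no longer passed. Without non-tumour libraries 3 and 4 together 9 fell. Tnfrsf19, a Wnt target of stem cells, fell by log2 1.26 ± 0.38, a call lost without those 2 libraries (adjusted p = 0.0812). Sox9, a factor of crypt cells, was lower in all 17 tumours, at 4.47, 6.70 and 9.83 CPM, against 9.89, 13.1 and 89.2 CPM in non-tumour tissue. Its log2 fold change of −1.91 ± 0.41 was −0.72 without libraries 3 and 4, where it missed the threshold (adjusted p = 0.181).

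Proliferation genes split the tumours. In the proliferation list 11 of 20 rose and none fell, with a median of 0.71. Mcm2, a subunit of the replicative helicase, was at 10.96, 76.8 and 132 CPM in tumours, against 21.2, 27.6 and 36.1 CPM in non-tumour tissue (1.45 ± 0.37). In 14 tumours it was above every non-tumour library, and tumours 1 and 2, at 17.04 and 10.96 CPM, were below them. Rrm2, which makes deoxynucleotides, rose by 1.80 ± 0.43 and Pcna, the sliding clamp of replication, by 0.70 ± 0.21. Mki67 was at 49.7, 287 and 613 CPM in tumours and 112, 167 and 231.8 CPM in non-tumour tissue and just missed the threshold (0.91 ± 0.39, adjusted p = 0.0501). The mean level of the list was highest in tumours 4, 5 and 8 (6.75, 6.72 and 6.61 on the log2 scale), which also had the 3 highest levels of the B cell list (8.12, 8.23 and 8.24). With the B cell list as a covariate none rose and 13 fell (median −1.24).

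Transcripts of Paneth cells, which sit beside the stem cells and secrete antimicrobial proteins, were lower in the tumours. In the Paneth cell list 9 of 12 fell and none rose, with a median of −2.46. Lyz1, lysozyme, was at 304, 877 and 1881 CPM in tumours. In non-tumour libraries 1 to 6 it was at 6684, 6745, 2052, 845, 10970 and 8539 CPM, so the duodenal pair, 3 and 4, lay nearest the tumours. Mptx2, Ang4 and Itln1, all secreted by Paneth cells, fell by log2 2.99 ± 0.58, 2.54 ± 0.60 and 2.44 ± 0.53, and each was low in the same pair. Without that pair 8 of 12 fell and the median was −2.91. Under the B cell covariate 1 of the 12 Paneth cell genes fell (median −1.66), and Mptx2, Ang4 and Itln1 missed the threshold (adjusted p = 0.22, 0.177 and 0.26). Defensin genes form families of near-identical copies, so their single values are not given.

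Goblet cell genes went in both directions, and several calls depended on 1 library. Muc2, the main mucin of the intestine, was at 807, 1477 and 4399 CPM in tumours, against 399, 836 and 1196 CPM in non-tumour tissue (1.23 ± 0.49, adjusted p = 0.0373 by edgeR). That call was lost without any of non-tumour libraries 1 to 5 (adjusted p from 0.0565 to 0.089) or without tumour 16 (0.0514). Agr2 and Spdef, a folding enzyme and a transcription factor of goblet cells, fell by log2 1.60 ± 0.44 and 1.64 ± 0.43. Non-tumour library 4 held 2999 CPM of Agr2 and 169 CPM of Spdef, and the other 5 held 299 to 936 and 13.99 to 30.6 CPM. Without library 4 the fold changes were −0.74 (adjusted p = 0.167) and −0.39 (adjusted p = 0.417). In the goblet cell list 1 of 13 rose and 4 fell with all libraries, and none rose and 1 fell without library 4.

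Enteroendocrine genes fell at the level of their progenitors as well as of their products. In the enteroendocrine list 11 of 15 fell and 1 rose, with a median of −1.54. Neurog3, the factor that commits a progenitor to this lineage, was at 0, 0.261 and 0.808 CPM in tumours and 1.96, 3.07 and 4.04 CPM in non-tumour tissue, with no overlap (−3.11 ± 0.37). Neurod1, which acts after it, was also lower in all 17 tumours (0.174, 0.686 and 1.75 CPM, against 1.76, 3.04 and 4.80 CPM in non-tumour tissue). Chgb, a granule protein, was at 7.02, 26.4 and 139 CPM in tumours and 119, 214 and 266.5 CPM in non-tumour tissue. Tph1, which makes serotonin in enterochromaffin cells, fell by log2 2.18 ± 0.43. Tumour 1 had the highest Chgb and Tph1 of the tumours (139 and 14.7 CPM) and overlapped non-tumour tissue. Given the B cell covariate 1 of 14 fell and 1 rose.

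Genes restricted to stretches of the gut differed widely among the non-tumour libraries. Pdx1, a factor of the duodenum and pancreas, was at 106 and 110 CPM in non-tumour libraries 3 and 4, against 0.218 to 1.29 CPM in the other 4, and at 0, 0.0964 and 0.637 CPM in tumours. Akp3, an alkaline phosphatase of the proximal intestine, was at 0.686, 2.70 and 5.90 CPM in tumours. In non-tumour libraries 1 to 6 it was at 73.3, 50.6, 6926, 10560, 16.3 and 18.0 CPM, all above every tumour (−9.92 ± 0.79). Without libraries 3 and 4 its log2 fold change was −3.70 and still passed. In the duodenal and proximal list 11 of 13 fell with all libraries (median −4.29) and 5 of 12 without that pair (median −1.09). S100g, a calcium carrier of the duodenum, was at 4739 and 5798 CPM in the pair and 12 to 15.4 CPM in the other 4, against 1.93, 5.03 and 68.2 CPM in tumours. Without the pair S100g no longer passed (−0.35, adjusted p = 0.76).

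Gastric genes stood high in 1 non-tumour library. Tff2, a peptide of gastric mucus, was at 38530 CPM in non-tumour library 4, at 0.131 to 24.6 CPM in the other 5, and at 0, 1.35 and 4.30 CPM in tumours. Pgc, the precursor of a gastric protease, was at 644 CPM there, at 0.327 to 5.29 CPM in the other 5, and at most 0.468 CPM in tumours. The gastric type list had 6 of 10 genes lower and a median of −7.89 with library 4, and 4 lower and a median of −0.76 without it.

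Ileal genes divided the tumours. Fabp6, the bile acid carrier of the ileum, was at 3.37, 1686 and 8909 CPM in tumours. In 10 tumours it reached 526.3 CPM or more, and tumours 1, 2, 7, 12, 13, 14 and 15 held 3.37 to 31.3 CPM. Non-tumour library 6 held 104 CPM and the other 5 held 2.02 to 6.70 CPM (log2 fold change 6.82 ± 1.86, adjusted p = 0.00343 by edgeR). Fgf15, the hormone that ileal bile acids induce, rose by 5.63 ± 1.46 and was at 0.274, 52.0 and 188 CPM in tumours and at most 5.67 CPM in non-tumour tissue. Neither passed with the B cell covariate, where the adjusted p was 0.84 for Fabp6 and 0.904 for Fgf15. Slc34a2, a phosphate carrier of the ileum, was at 85.2, 485 and 1143 CPM in tumours, against 2.33, 81.9 and 488 CPM in non-tumour tissue, and its call (adjusted p = 0.0271) was lost without any of non-tumour libraries 1 to 5 (0.0512 to 0.0591). Scarb1, a lipid receptor of the proximal intestine, was at 7.74, 12.9 and 20.4 CPM in tumours, against 12.4, 78.7 and 172 CPM in non-tumour tissue, the lowest being library 6 (−2.87 ± 0.25). Of the non-tumour libraries, 6 was thus the most like the tumours in these genes, and 3 and 4 the least. Position along the gut and the tumour label cannot be told apart in this comparison.

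**Figure D4:**
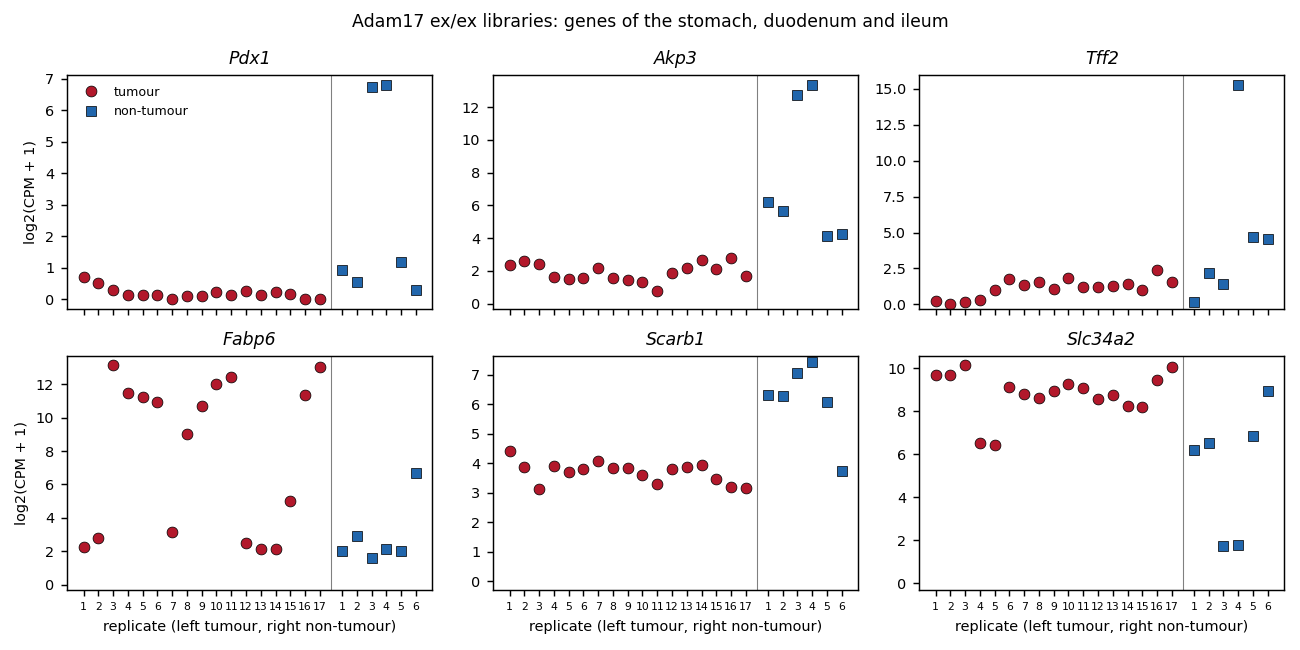
Log2(CPM + 1) of 6 genes restricted along the gut in each ex/ex library, tumours (replicates 1 to 17) left of non-tumour tissue (1 to 6). Non-tumour libraries 3 and 4 are high for Pdx1 and Akp3, library 4 alone for Tff2, and Fabp6 is high in 10 tumours and intermediate in non-tumour library 6.

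Genes of nutrient digestion fell in part and varied widely among tumours. In the list of brush border hydrolases 5 of 14 fell and 1 rose, with a median of −0.67. Sis, the sucrase of villus enterocytes, was at 274, 2109 and 6975 CPM in tumours, against 1308, 6927 and 8848 CPM in non-tumour tissue (−1.34 ± 0.53, adjusted p = 0.0346 by edgeR), a call lost without non-tumour library 1, 2 or 5 (0.0822 to 0.0902). Mgam, the maltase, fell by log2 1.23 ± 0.41. Tumours 1 and 2 had the 2 highest Sis values (6662 and 6975 CPM) and tumours 4 and 5 the lowest (279 and 274 CPM). In the fit with the B cell covariate Sis had the opposite sign, at 1.09.

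Metabolic genes that lay below in every tumour included tumours 1 and 2. Cps1, the enzyme that fixes ammonia in enterocytes and liver, was at 36.3, 106 and 298 CPM in tumours, against 639, 1073 and 1154 CPM in non-tumour tissue (−3.01 ± 0.32, adjusted p = 9.85e-09 by edgeR). Cpt1a, which admits fatty acids to mitochondria, was at 82.2, 100 and 161 CPM in tumours and 164, 203 and 245.8 CPM in non-tumour tissue. Cpt1a belongs to the list of PPAR-alpha targets, of which 9 of 12 fell and none rose (median −1.13), and with the B cell list as a covariate 2 fell. Among cytochrome P450 genes 9 of 16 fell and none rose (median −1.44). Cyp1a1, which oxidises dietary aromatic compounds, was at 2.71, 6.20 and 16.7 CPM in tumours, and at 70.3, 58.2, 91.6, 112, 40.9 and 3.49 CPM in non-tumour libraries 1 to 6. Cholesterol synthesis went the other way, with 7 of 14 genes higher and 1 lower (median 0.55). Srebf2, its main transcription factor, was at 111, 197 and 242.4 CPM in tumours and 84.5, 94.5 and 112 CPM in non-tumour tissue (1.02 ± 0.19), and Sqle, squalene epoxidase, rose by 0.99 ± 0.27.

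Endothelial transcripts were lower in the tumours, with more members free of overlap than in any other list. In the endothelium list 11 of 12 fell, none rose, the median was −1.58, and 9 lay below in every tumour, against 3.03% of all genes. Kdr, the main VEGF receptor (5:75932827-75978458), was at 4.77, 9.88 and 16.1 CPM in tumours, against 34.8, 41.6 and 55.9 CPM in non-tumour tissue (−2.03 ± 0.32, adjusted p = 1e-05 by edgeR). Flt1, another VEGF receptor, and Vwf, the clotting factor stored in endothelium, fell by log2 1.81 ± 0.32 and 1.79 ± 0.30. The exception was Pecam1, an adhesion molecule that leukocytes also carry, at 15.8, 70.1 and 99.2 CPM in tumours and 39.2, 47.8 and 50.3 CPM in non-tumour tissue (0.51 ± 0.36, not past the threshold). In tumours 1 and 2 Pecam1 was 27.7 and 15.8 CPM, below all non-tumour libraries, and in 14 others it was above them. Given the B cell covariate 9 of the 12 still fell.

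Connective tissue and nerve transcripts fell to a smaller extent. Of the fibroblast and collagen list 11 of 15 fell and none rose (median −0.84). Col14a1, a collagen of fibroblasts, was at 1.73, 8.67 and 21.1 CPM in tumours, against 31.5, 56.1 and 62.8 CPM in non-tumour tissue (−2.44 ± 0.34). Col3a1 and Fn1 fell by log2 1.38 ± 0.26 and 1.22 ± 0.31. Among BMP ligands and antagonists 6 of 13 fell and 1 rose. Bmp4 and Bmp7, ligands that favour differentiation of villus cells, were lower in all 17 tumours (−1.38 ± 0.27 and −1.22 ± 0.33). Grem1, a BMP antagonist, was the member that rose, to 13.7, 75.1 and 110 CPM in tumours, against 4.84, 21.6 and 35.9 CPM in non-tumour tissue (1.69 ± 0.44). Of the enteric neuron and glia list 10 of 14 fell (median −1.08), among them Vip, a neuropeptide, at 0.607, 2.07 and 11.1 CPM in tumours and 12.9, 21.8 and 46.8 CPM in non-tumour tissue. Without non-tumour libraries 3 and 4 only 2 of the 14 fell and the median was −0.42. None of the 10 smooth muscle genes passed the test, 1 of 10 mast cell genes fell, and pancreatic acinar genes were too low to test.

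Adam17 itself (12:21323509-21373632) was at 14.5, 22.9 and 33.5 CPM in ex/ex tumours, against 9.67, 10.2 and 14.6 CPM in ex/ex non-tumour tissue, and rose by log2 1.10 ± 0.20 (adjusted p = 5.81e-05 by edgeR). In 16 tumours it was above all non-tumour libraries, and tumours 1, 2 and 3 had the lowest values (14.5, 14.8 and 15.4 CPM). All ex/ex tumours were below the lowest tumour of mice with wild-type Adam17 (38.5 CPM). In the fit with the B cell covariate the log2 fold change was 0.32 and missed the threshold (adjusted p = 0.252). Among its regulators, Rhbdf2, which escorts ADAM17 to the surface in immune cells, rose by 0.28 ± 0.11, a call lost without any of non-tumour libraries 2, 3, 5 or 6 (adjusted p from 0.0592 to 0.128) or of tumours 1, 12 or 14 (0.0518 to 0.0564). Timp3, the tissue inhibitor of ADAM17, was lower in every tumour, at 10.6, 21.0 and 42.5 CPM, against 45.9, 67.3 and 110 CPM in non-tumour tissue (−1.62 ± 0.27).

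Ligands of the EGF receptor family, several of which ADAM17 releases, were lower or did not pass the test. In the EGFR family list 3 of 10 fell and none rose, with a median of −0.60. The share that fell was near the 23.3% of all genes tested. Btc, betacellulin, was at 1.65, 2.84 and 9.24 CPM in tumours, against 7.31, 8.98 and 10.4 CPM in non-tumour tissue (−1.24 ± 0.41). Tumour 1 had the highest Btc (9.24 CPM), within the non-tumour range, and the other 16 tumours were below it. Nrg1, a ligand of ERBB3 and ERBB4, fell by log2 1.29 ± 0.30 and Egf by 1.02 ± 0.28. Areg, amphiregulin, was at 1.13, 3.93 and 7.80 CPM in tumours and 2.84, 7.73 and 13.8 CPM in non-tumour tissue and just missed the threshold (−1.04 ± 0.44, adjusted p = 0.0501). Egfr was at 10.2, 19.6 and 58.8 CPM in tumours and 26.1, 34.3 and 42.1 CPM in non-tumour tissue (−0.60 ± 0.33, not past the threshold). Tumours 1 and 2 had the highest Egfr (58.8 and 49.0 CPM) and 14 tumours were below all non-tumour libraries. Without the 5 libraries with Y-linked transcripts, tumours 1 and 2 among them, 7 of 10 members fell. In that fit 4614 of 15431 genes fell. Targets of ERK, the kinase downstream of the receptor, were mixed: 1 of 13 rose and 2 fell. Dusp4, an ERK phosphatase, was at 2.28, 11.3 and 18.8 CPM in tumours and 2.10, 3.09 and 3.66 CPM in non-tumour tissue (2.0 ± 0.34), and Spry2, an inhibitor of the pathway, fell by log2 0.77 ± 0.21.

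In the list of the IL-6 family and STAT3, 7 of 13 genes rose and 1 fell, with a median of 0.37. Socs3, the feedback inhibitor that STAT3 induces, was at 19.4, 26.6 and 36.3 CPM in tumours, against 9.79, 11.1 and 14.1 CPM in non-tumour tissue. No tumour overlapped, tumours 1 to 3 included (21.8, 22.9 and 19.4 CPM), and the log2 fold change was 1.30 ± 0.14 (adjusted p = 1.88e-08 by edgeR). Stat3 was likewise higher in all 17 tumours, at 171, 194 and 221 CPM, against 136, 149 and 168 CPM in non-tumour tissue (0.37 ± 0.07). Given the B cell covariate Socs3 still rose, by 0.89, and Stat3 by 0.54. The window upstream of Socs3 (chr11:117969317-117969616, minus strand, same source and span as above) is shown because both genes were higher in all 17 tumours. Of all genes tested 1.49% were. Whether Socs3 and Stat3 vary together among the tumours was not tested.
Socs3: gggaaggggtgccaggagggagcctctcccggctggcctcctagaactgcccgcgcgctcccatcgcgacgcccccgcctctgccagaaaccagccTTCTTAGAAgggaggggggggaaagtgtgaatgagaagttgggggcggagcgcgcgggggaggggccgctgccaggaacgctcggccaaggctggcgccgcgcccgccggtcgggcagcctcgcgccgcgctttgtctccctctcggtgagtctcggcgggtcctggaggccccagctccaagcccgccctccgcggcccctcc
Capitals mark TTCTTAGAA, a match to TTCNNNGAA, the form to which STAT proteins bind, 154 bases before the start; 8.3% of all windows hold such a match on either strand. STAT binding was not measured here.

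The ligands and receptors of the IL-6 family were low, or high in the tumours with a high B cell level. Il6 had no more than 0.522 CPM in any tumour and 0.155 CPM in any non-tumour library, and its rise (2.46 ± 0.91, adjusted p = 0.0261 by edgeR) was lost without non-tumour library 1, 4, 5 or 6 (0.0536 to 0.0618). Osm, oncostatin M, was at 0.142, 2.64 and 3.78 CPM in tumours and at most 0.327 CPM in non-tumour tissue (3.82 ± 0.85). Il6ra, the IL-6 receptor that ADAM17 can shed, was at 4.27, 25.2 and 31.7 CPM in tumours, against 6.88, 7.83 and 19.0 CPM in non-tumour tissue (1.2 ± 0.39), and Il6st, the shared signalling chain, at 47.4, 113 and 147 CPM, against 57.5, 70.1 and 85.1 CPM in non-tumour tissue (0.60 ± 0.23). Tumours 1 and 2 had 10.2 and 4.27 CPM of Il6ra and 58.6 and 47.4 CPM of Il6st, so neither was above all non-tumour libraries in the tumours with the lowest B cell levels. In the fit with the B cell covariate Il6ra, Il6st and Osm had the opposite sign (−0.79, −0.50 and −0.10). The call for Il6st was lost without any of non-tumour libraries 1, 2, 3 or 5 (adjusted p from 0.0558 to 0.0746), and that for Il6ra without 3 and 4 together (0.0782). Lifr, the receptor of LIF, was lower in every tumour (6.26, 11.2 and 15.2 CPM, against 18.0, 22.3 and 29.0 CPM in non-tumour tissue).

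**Figure D5:**
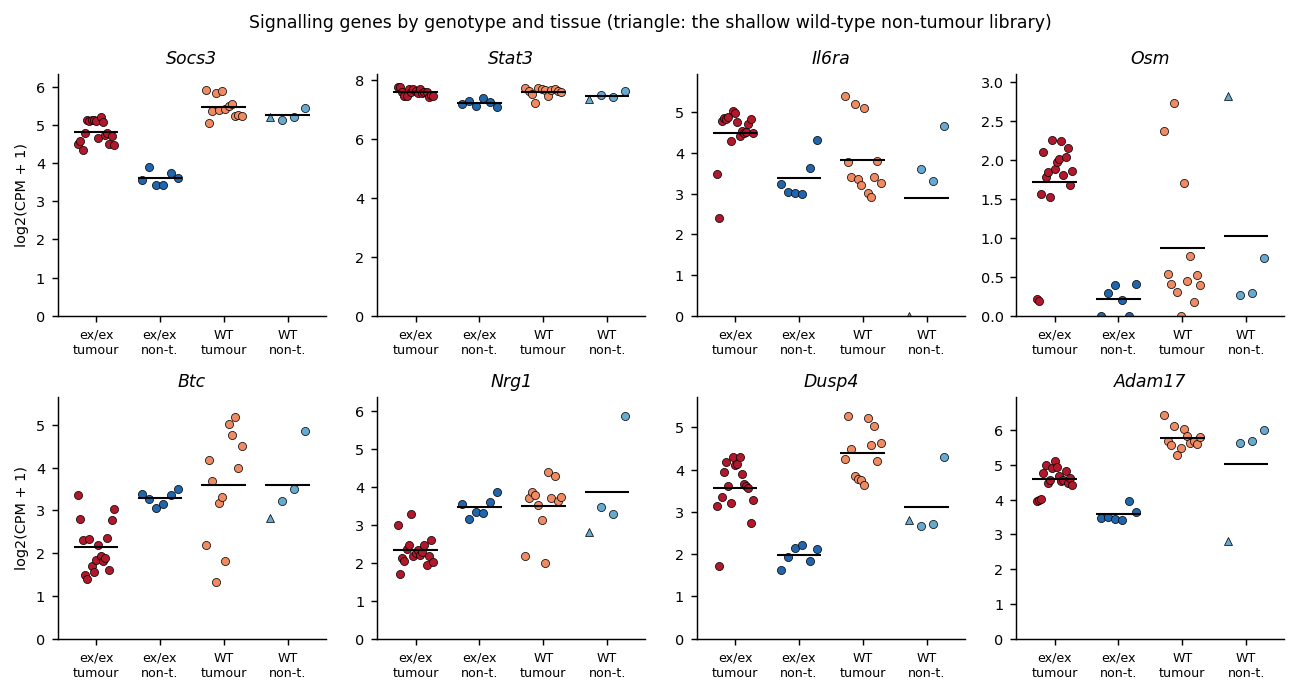
Log2(CPM + 1) of 8 genes of the IL-6, EGF receptor, ERK and ADAM17 groups in ex/ex tumours, ex/ex non-tumour tissue, wild-type tumours and wild-type non-tumour tissue, with bars at the group means. The triangle marks the shallow wild-type non-tumour library 1. Socs3 and Stat3 are higher in all ex/ex tumours than in any ex/ex non-tumour library, and for Adam17 the ex/ex tumours sit under the wild-type ones.

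Among genes higher in every ex/ex tumour, the largest fold change was that of Stra6, the cell-surface receptor for retinol-binding protein (9:58063788-58153996). It was at 3.27, 37.3 and 61.9 CPM in tumours, against 0, 0.217 and 0.466 CPM in non-tumour tissue (7.32 ± 0.69, adjusted p = 8.03e-10 by edgeR). Tumour 2 had the lowest value, 3.27 CPM, still above every non-tumour library. The list of regenerative and fetal-like genes held 3 such members, with 5 of 10 genes higher and 1 lower. The counts were the same with the B cell list as a covariate, which does not show that the same genes passed. Msln, a surface protein of mesothelium and injured epithelium, was at 1.76, 5.40 and 8.69 CPM in tumours and at most 0.394 CPM in non-tumour tissue (5.11 ± 0.63). Il1rn, the antagonist of IL-1, was at 5.85, 16.2 and 28.2 CPM in tumours and 1.02, 3.79 and 5.02 CPM in non-tumour tissue. Clu, which marks revival stem cells after injury and follicular dendritic cells, was at 115, 955 and 1363 CPM in tumours. It was at 12.9 to 21.0 CPM in 5 non-tumour libraries and at 684 CPM in library 4 (2.84 ± 0.73). With the B cell covariate Clu missed the threshold (0.57, adjusted p = 0.74 by edgeR).

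Rel and Bach2 also lay above in every tumour. Rel, an NF-kappaB subunit of lymphocytes, was at 21.5, 77.6 and 121 CPM in tumours, against 7.47, 11.98 and 16.7 CPM in non-tumour tissue (2.73 ± 0.45). Bach2, a repressor of plasma cell fate, rose by 3.02 ± 0.60. Nfkb2, a precursor subunit of the same pathway as Relb, rose by 1.80 ± 0.28 and was above every non-tumour library in 16 tumours. Rel kept its call with the B cell covariate, and Bach2 (0.78, adjusted p = 0.163) and Nfkb2 (0.14, adjusted p = 0.593) did not. Among genes lower in every tumour, Dmbt1, a secreted protein that binds bacteria, was at 97.0, 157 and 272 CPM in tumours, against 395, 1225 and 2738 CPM in non-tumour tissue (−3.07 ± 0.38). Ugt2b35, a detoxifying transferase, was at 4.34, 14.1 and 30.6 CPM in tumours and 48.3, 106 and 216 CPM in non-tumour tissue (−3.18 ± 0.29). Hhip, an inhibitor of Hedgehog ligands, fell by log2 2.76 ± 0.48.

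In the list of Reg and mucosal defence genes 4 of 11 rose and 3 fell. Duox2, which makes hydrogen peroxide at the surface, was at 13.1, 36.9 and 129 CPM in tumours, against 2.02, 3.51 and 23.4 CPM in non-tumour tissue, the highest being library 6 (2.98 ± 0.66). Nos2, the inducible nitric oxide synthase, was at 1.56, 52.6 and 189 CPM in tumours and at 0.893 to 1.83 CPM in 5 non-tumour libraries, with 42.5 CPM in library 6 (3.12 ± 1.02). Its call was lost without non-tumour libraries 3 and 4 together (adjusted p = 0.0728). Under the B cell covariate Duox2 missed the threshold (2.11, adjusted p = 0.0515) and Nos2 had the opposite sign (−1.72). Tumours 1 and 2 had 1.59 and 1.56 CPM of Nos2, the level of those 5 libraries, but 42.5 and 33.7 CPM of Duox2.

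The tumour effect of ex/ex mice was then tested against that of mice with wild-type Adam17 in the same fit. In wild-type mice 825 of 16327 genes (5.05%) differed between tumours and non-tumour tissue, with 4 non-tumour libraries, 1 of which held only 438639 counts. The difference between the effects passed for 33 genes (0.202%), 14 higher and 19 lower in ex/ex. The larger number of changed genes in ex/ex is thus no test that the effects differ. In the B cell, MHC class II and endothelium lists no member passed this test, which does not show that their effects were alike. The 33 depended on single libraries: 6 kept their call without the shallow wild-type library and 9 without ex/ex non-tumour library 4.

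Stra6 differed by log2 5.51 (adjusted p = 4.43e-04 by edgeR). Its tumour levels overlapped between the genotypes, at 3.27 to 61.9 CPM in ex/ex and 21.9 to 88.7 CPM in wild type, while non-tumour tissue held at most 0.466 CPM in ex/ex and 0 to 35.3 CPM in wild type. Socs3 differed by 1.06 (adjusted p = 0.0243), with 19.4 to 36.3 CPM in ex/ex tumours and 32.5 to 59.5 CPM in wild-type tumours, and 9.79 to 14.1 CPM in ex/ex non-tumour tissue and 34.2 to 43.2 CPM in wild-type non-tumour tissue. The call for Socs3 was lost without wild-type non-tumour library 1 (0.0531) or 4 (0.0571) or ex/ex non-tumour library 4 (0.0635). A2m, a protease inhibitor, differed by 6.79 (adjusted p = 9.32e-05), with 1.14 to 10.7 CPM in ex/ex tumours and 1.46 to 15.3 CPM in wild-type tumours. In non-tumour tissue A2m was at 0 to 1.56 CPM in ex/ex and 12.1 to 141 CPM in wild type. By their medians, the non-tumour levels of all 3 genes differed between genotypes more than the tumour levels did. Genes of the duodenum and stomach were among those lower in ex/ex, Akp3 (−7.92) and Pdx1 (−7.54) with them, and without ex/ex non-tumour libraries 3 and 4 neither passed (−1.71 and −1.90). For Notum and Wif1 the differences of −4.38 and −3.36 did not pass (adjusted p = 0.257 and 0.245), nor did that of −2.92 for Lgr5 (0.135).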

How the data were processed

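RNA was measured in 39 libraries of mouse intestinal tissue (TruSeq stranded mRNA kit from 500 ng total RNA, per the labels' protocols). The authors deposited 1 table of read counts per gene and library. Reads had been trimmed (Trimmomatic 0.36), aligned to GRCm38 (TopHat2 2.0.14) and counted (HTSeq), as far as the submitters' processing notes name tools. The strand setting of the counting is not given in the sources used here. Of 49585 gene IDs, 49326 matched GENCODE M21, and the 259 unmatched held 0.0851% of counts. Reads the counter set aside as not unique came to 29.2% to 33.2% of ex/ex tumour and 29.1% to 34.0% of ex/ex non-tumour reads listed in the tables, and these entered neither library sizes nor tests.

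Groups came from the genotype and tissue labels. The deposited counts of all 4 groups were fitted in edgeR 4.0.16 (R 4.3.3; filterByExpr, TMM, quasi-likelihood F test), which left 16327 genes with a common dispersion of 0.188. Contrasts were ex/ex tumour minus ex/ex non-tumour, the same in wild type, and their difference, each adjusted over all genes by Benjamini-Hochberg at 0.05. Fold changes are log2, with SE as the fold change over the square root of F. The fit was also run on simulated counts with independent libraries and few changed genes. That setting differs from these data, so the run does not vouch for the calls here. Alternatives were DESeq2 1.42.0, DESeq2 size factors, limma-voom 3.58.1, no filter, the ex/ex libraries alone, with and without libraries holding Y-linked transcripts, the mean log2 CPM of the B cell list as a covariate, and single libraries left out. Leaving out non-tumour libraries 3 and 4, leaving out tumours 1 and 2, and summing non-tumour libraries 1 and 2 were chosen after seeing the data. Median log2 fold changes over all genes were −0.03 with TMM and 0.03 with size factors.

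The gene lists (48) and the rules were chosen with earlier results of these data known. The rule for named genes took the 12 largest changes each way among genes without overlap (average log2 CPM of at least 3), the 6 smallest p of each list, all members of the Wnt, M cell, EGFR, IL-6 and ADAM17 lists, and the 8 smallest p of the interaction, and the text gives a part of them; some items are not reported here. It names 114 genes, 16 of them outside the rule and chosen after their values were seen: Cd79a, Gcsam, Il21, Ltb, Ltbr, Cd3e, Ighm, H2-Eb1, Tnfrsf19, Pcna, Mki67, Ang4, S100g, Flt1, Pecam1 and Clu. Upstream sequences came from RefSeq tables (GRCm38.p6), in which 7 of the 10 class II genes had an entry. Replicates are separate samples in the labels, which do not say whether they came from separate animals.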

Additional observations from a re-analysis of the deposited data

Results flagged for a closer look

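Of the genes named, those below had 1 ex/ex non-tumour library far from the other 5 by Dixon's criterion, which chance meets in about 1 of 20 groups. Library 4 stood high for Tff2 (38530 CPM), Agr2 (2999 CPM), Clu (684.5 CPM), Pgc (644.5 CPM), Xbp1 (517.7 CPM), Spdef (168.9 CPM), Sox9 (89.19 CPM), Gp2 (41.01 CPM), Tnfrsf19 (20.5 CPM) and Notum (4.833 CPM). Library 6 stood high for Slc34a2 (487.9 CPM), Fabp6 (103.6 CPM), Nos2 (42.55 CPM), Duox2 (23.35 CPM), Il6ra (18.98 CPM), Bmp7 (17.56 CPM) and Fgf15 (5.673 CPM), and low for Sp5 (3.6 CPM). The others were library 2 for Ighd (5.024 CPM), library 3 for A2m (1.555 CPM) and library 5 for H2-Aa (413.1 CPM).

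The tumour effect differed between ex/ex and wild-type mice, in edgeR's interaction term, for A2m (6.79, adjusted p = 9.32e-05), Stra6 (5.51, adjusted p = 4.43e-04), Pnck (5.88, adjusted p = 0.0201), Aldh3a1 (4.84, adjusted p = 0.0243), Msln (4.14, adjusted p = 0.0201), Sema4f (3.31, adjusted p = 0.0201) and Socs3 (1.06, adjusted p = 0.0243), all on the log2 scale. It was lower in ex/ex for Akp3 (−7.92, adjusted p = 0.0201), Pdx1 (−7.54, adjusted p = 0.0327), Pgc (−10.91, adjusted p = 0.0327) and Tff2 (−15.47, adjusted p = 0.0426). Pnck was at 1696 CPM in wild-type non-tumour library 1. The calls for Aldh3a1, Sema4f and Msln were lost without wild-type non-tumour library 4 (adjusted p = 0.127, 0.169 and 0.0571). Those for Akp3 and Pdx1 were lost without wild-type non-tumour library 1 (0.0925 and 0.0927), and that for Pdx1 also without library 2 or 3 of that group (0.0958 and 0.086) or ex/ex non-tumour library 4 (0.0871). Those for Pgc and Tff2 were lost without ex/ex non-tumour library 4 (adjusted p = 0.254 and 0.309) and also without wild-type non-tumour library 1 (0.0927 and 0.133), 2 (0.0968 and 0.142) or 3 (0.0975 and 0.111). Tff2 was also lost in most other fits that left out 1 library.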

How the results depend on the processing

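The counts of genes that rose and fell in ex/ex tumours stayed within 1.5 times of 3885 and 3800 under DESeq2, size factors, no filter, the ex/ex libraries alone, without the libraries with Y-linked transcripts, without non-tumour libraries 3 and 4, without tumours 1 and 2, with non-tumour libraries 1 and 2 summed, and with each library left out. They left that range with limma-voom (6102 lower), within the 5 libraries with Y-linked transcripts (14 higher and 10 lower) and with the B cell list as a covariate (1495 higher and 2251 lower). The interaction counts, 14 higher and 19 lower, were less stable: 5 lower with no filter, 35 higher and 98 lower with DESeq2, and 9 higher and 0 lower without ex/ex non-tumour libraries 3 and 4 together, where 734 genes had an unadjusted p under 0.05 in edgeR for lower. With 1 library left out they ranged from 6 to 24 higher and from 0 to 41 lower, the 0 being without wild-type non-tumour library 1, where 1130 genes had an unadjusted p under 0.05 in edgeR for lower.

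With the B cell list as a covariate these named genes changed sign: Cd79a (−0.81), Gcsam (−2.11), S1pr2 (−1.59), Ltb (−0.19), Ltbr (0.56), Cd3e (−0.54), Ighm (−1.54), Tnfsf11 (−1.0), Gp2 (−1.09), H2-Aa (−0.28), H2-Eb1 (−0.45), Sp5 (0.37), Mcm2 (−1.39), Rrm2 (−1.19), Pcna (−0.46), Sis (1.09), Mgam (0.80), Grem1 (−0.16), Btc (0.04), Dusp4 (−0.12), Spry2 (0.29), Osm (−0.10), Il6ra (−0.79), Il6st (−0.50) and Nos2 (−1.72). Within the libraries with Y-linked transcripts Mcm2 (−0.45), Rrm2 (−0.49), Pcna (−0.21), Agr2 (0.28), Spdef (0.39), S100g (1.32) and Spry2 (0.08) did. The interaction for Pnck was −1.32 without wild-type non-tumour library 1 and up to 6.34 with another library left out. The cause was not tested. Cd79a is a member of the B cell list, so the loss of its rise with that list as a covariate was set in advance. The named genes that kept their call with the covariate were Ighd, Jchain, Igha, Marcksl1, Relb, Neurog3, Kdr, Stra6, Znrf3, Sox4, Mmp7, Olfm4, Tnfrsf19, Lyz1, Muc2, Akp3, Tff2, Slc34a2, Scarb1, Cps1, Cyp1a1, Vwf, Nrg1, Socs3, Stat3, Lifr, Msln, Il1rn, Rel, Dmbt1, Ugt2b35, A2m and Aldh3a1. Tff2 (−1.01, adjusted p = 0.414) and Fgf15 (6.12, adjusted p = 0.0899) missed the threshold with limma-voom. With non-tumour libraries 1 and 2 summed, Gp2, Muc2, Slc34a2, Sis, Il6st and Rhbdf2 missed it.

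No paired analysis was possible because the labels carry no replicate numbers, and the numbers used here follow the order of deposit.

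The B cell covariate (mean log2 CPM) was 0.44 in tumour 2, 4.79 in tumour 1 and 6.75 to 8.24 in the other 15 tumours, against 0.90 to 2.21 in non-tumour tissue, so it nearly follows the groups. The libraries with Y-linked transcripts are 3 tumours and 2 non-tumour pieces, which limits the calls among them. Position along the gut, animal and sex are given by no label. Position and animal cannot be told apart from the groups. Libraries with and without Y-linked transcripts occurred in both groups.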

Other observations

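Genes of oxidative metabolism fell together. Among 81 nuclear genes of the respiratory chain and ATP synthase, a list chosen after the files were read, 68 fell in ex/ex tumours and none rose, with a median log2 fold change of −0.69, against 23.3% of all genes that fell. The change was small per gene and left the groups overlapping: the mean level of the list was 5.89 to 7.53 (log2(CPM + 1)) in tumours and 6.78 to 7.42 in non-tumour tissue. Tumours 1 and 2 had the highest means (7.53 and 7.46) and tumours 4, 5 and 9 the lowest (5.96, 5.89 and 5.94). With the B cell list as a covariate none of the respiratory chain (nuclear) list fell and 3 rose, and without non-tumour libraries 3 and 4 together 47 of 80 fell.

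Of 18 macrophage and dendritic cell genes 3 rose and 5 fell, and of 12 neutrophil and acute inflammation genes 1 rose and 2 fell, against 23.8% and 23.3% of all genes. The summed level of the macrophage and dendritic cell list was 243.6, 1243 and 2268 CPM in tumours (lowest, median, highest), against 412, 503 and 524 CPM in non-tumour tissue. Of 18 interferon response genes 4 rose and none fell, and without non-tumour libraries 3 and 4 together 1 of the interferon response list rose. In the red blood cell list 4 of 5 fell (median −1.65), beside the fall of the endothelium list. In the circadian clock list 3 of 15 rose and 2 fell.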
